A study of Equus caballus with 12 samples.

Results

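Zinc finger genes of horse oocytes were examined in fresh and vitrified material: 33 genes of a table of 11425 genes, in 12 pools of in vitro matured oocytes. The members were the genes whose Ensembl identifier was paired, in the supplementary lists of the study, with a name beginning ZNF, ZFP, ZBTB or ZSCAN. No name beginning ZSCAN was found. A name was found for 2569 genes of the table, and zinc finger genes that had no name in those lists were not analysed here.

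The way the names were obtained bears on every count below. All 33 members were named through 2 lists of comparisons with fresh oocytes, 20 of them in the VIM list and 20 in the VMAT list, with 7 in both. In the form held here, these lists contained only genes with a value above 0 in every sample of their comparison. Genes that carried a flag of the authors came first. Within the flagged and the unflagged genes the order was by fold change, and the upper end was missing. Which genes had a name thus depended on the authors' flag and fold changes. The named genes therefore leaned towards genes lower in vitrified than in fresh oocytes, so a predominance of negative differences among the members is a property of the naming and nothing was read from it. ZNF215, ZNF292 and ZNF624 had no read in some VIM pools and were named only through the VMAT list. They became members through VMAT and FR, the groups where they were higher, so nothing was read from their low VIM values. ZFP90, ZNF226 and ZNF473 also had a VIM pool without reads and were named only through the VMAT list. ZFP14, ZNF326 and ZNF330 had a VMAT pool without reads and were named only through the VIM list. Their low values in those groups carry the same limit.

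The FR group (n = 5) consisted of fresh oocytes that had undergone in vitro maturation (IVM). VMAT oocytes (n = 3) were matured in vitro, vitrified at metaphase II and warmed. According to the study, FR and VMAT oocytes went through IVM together and were allotted to their group afterwards. VIM oocytes (n = 4) were vitrified while immature, with the corona radiata still around them, then warmed and matured in vitro. In all groups the ovaries came from a slaughterhouse, the oocytes were denuded and had a visible polar body, and a mean of 23 oocytes was pooled per sample. Nothing in the labels ties a pool to one mare, so p-values measure only the spread between these pools, and fewer cells and less RNA per cell cannot be told apart in such material. A further VMAT sample had been removed by the authors and was not analysed here.

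A zinc finger is a small protein fold held together by a zinc ion, and proteins with arrays of C2H2 fingers form the largest family of transcription factors in mammals. Many of them carry a KRAB domain at their start, which recruits the corepressor TRIM28 and silences transposable elements and other repeats. ZBTB proteins instead combine the fingers with a BTB domain, by which they pair with each other and bind corepressors. Other zinc finger proteins bind RNA, mature ribosomes or attach ubiquitin. A fully grown oocyte does not transcribe, and its maturation runs on stored messengers that are translated or degraded on schedule. By these roles the members comprised 13 KRAB genes, 4 BTB genes, 9 genes of RNA, ribosome or ubiquitin functions and 7 other nuclear genes.

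The values were DESeq2-normalized counts, that is, reads divided by a size factor per pool, and whole reads could be recovered from them. Between 1636620 reads (VMAT replicate 1) and 12166950 reads (VMAT replicate 2) lay on genes, with a median of 2899470. VMAT replicate 2 stood apart in depth, with a size factor of 7.98 where VMAT replicate 1 had 0.321, so a floor of 3 reads corresponded to a normalized count between 0.376 and 9.34. These floors cover counting error only. Of 16 oocyte markers, 10 had a name, and GDF9, BTG4, DPPA3 and ZP4 were above 30 reads in all 12 pools. The others were so in fewer pools: KPNA7 in 11, BMP15 in 10, ZP2 and ZAR1 in 9, and FIGLA and TLE6 in 6. The summed level of all named oocyte markers ranged from 12805 to 19830 in VIM, from 13864 to 28623 in VMAT and from 16592 to 21162 in FR. Of 16 markers of cumulus and granulosa cells only HAS2 had a name, so the label could not be checked against the others. HAS2 was at 641 to 2144 in VIM, 254 to 1755 in VMAT and 462 to 1239 in FR, and its part in the results was not tested.

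Most zinc finger genes were read as either high or near 0 within one group of oocytes. Of the 396 values (33 genes in 12 pools), 202 (51.0%) rested on more than 100 reads, 134 (33.8%) on 1 to 10 reads and 11 (2.78%) on no read, while only 22 (5.56%) lay between 11 and 30 reads and 27 (6.82%) between 31 and 100. A value of no read allows up to 3 reads. Among all genes with a name, 65.4% of values rested on more than 100 reads and 21.8% on 1 to 10. The same gap between low and high values was therefore present in the named genes at large, with more of the members' values on the low side. Because gene, pool and naming are shared between values, these shares are a description.

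**Figure D1:**
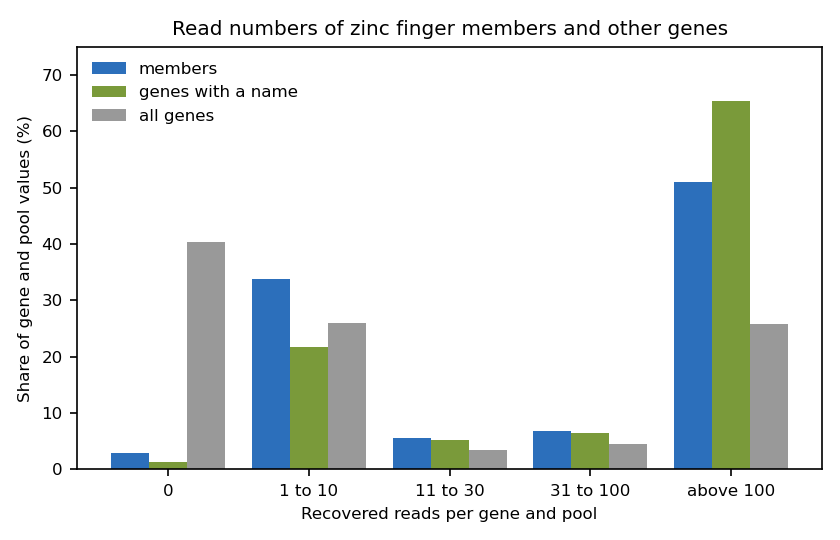
Share of gene and pool values (%, vertical axis) by number of recovered reads (horizontal axis) for the 33 zinc finger members, the 2569 genes with a name and all 11425 genes. The members held 33.8% of their values at 1 to 10 reads and 51.0% above 100 reads, with few values between.

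Only 4 members, ZNF706, ZBTB38, ZFP91 and ZNF281, were above 30 reads in all 12 pools. This was 12.1% of the members, compared with 22.7% of the named genes and 6.43% of all genes. The other 29 (87.9%) crossed 30 reads in some pools and not in others, compared with 77.3% of the named genes. ZFP69 was above 30 reads in only 2 pools, and ZNF215, ZNF292 and ZNF624 in 3.

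The number of members above 30 reads was 17, 9, 18 and 17 in the VIM pools, 12, 30 and 17 in the VMAT pools, and 21, 18, 22, 27 and 21 in the FR pools. The means were 15.3 ± 4.19 (SD, n = 4), 19.7 ± 9.29 (SD, n = 3) and 21.8 ± 3.27 (SD, n = 5). VIM overlapped with FR at 18 members, and VMAT spanned nearly the whole range. The pool with the most reads, VMAT replicate 2, had the most members. Scaled to the total of the shallowest pool, the counts were 17, 9, 14 and 17 in VIM, 12, 27 and 16 in VMAT, and 20, 16, 22, 27 and 20 in FR, where VIM and FR still overlapped. As a share, 27.3 to 54.5% of the members were above 30 reads in VIM, 36.4 to 90.9% in VMAT and 54.5 to 81.8% in FR. Over the named genes it was 59.2 to 76.8%, 49.2 to 96.7% and 69.9 to 82.2% in the same order.

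**Figure D2:**
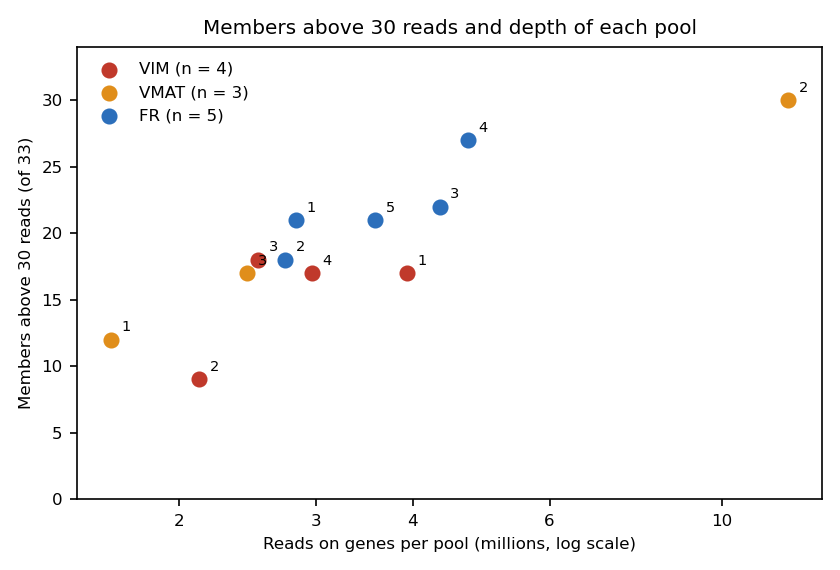
Number of zinc finger members above 30 reads (vertical axis, of 33) against reads on genes (horizontal axis, log scale, in units of 1000000 reads), with 1 point per pool, numbered by replicate and coloured by group. The deepest pool, VMAT replicate 2, had 30 members above 30 reads and VIM replicate 2 had 9.

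Pools of the same group shared only some of their high zinc finger genes: 4 members (12.1%) were above 30 reads in all VIM pools, 9 (27.3%) in all VMAT pools and 9 (27.3%) in all FR pools. Among the named genes the shares were 36.2%, 38.0% and 40.7% in the same order, so most named genes also missed some pool of each group. On the log2(normalized count + 1) scale, the correlation across the 33 members between 2 pools of a group had a median r of 0.271 in VIM, 0.387 in VMAT and 0.175 in FR. Between pools of different groups it was 0.303. Across the 8658 genes that entered any comparison the medians were 0.582, 0.573, 0.578 and 0.579. These correlations run across genes within pairs of pools, share pools with each other and are given without a test. The median within-group SD of a member was 2.75 log2 units, from 0.519 for ZNF706 to 4.50 for ZNF330, and it was 2.48 over the 8658 genes. The median level was 5.56 over the members and 2.95 over the 8658 genes on this scale, so neither r nor SD is compared like for like.

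**Figure D3:**
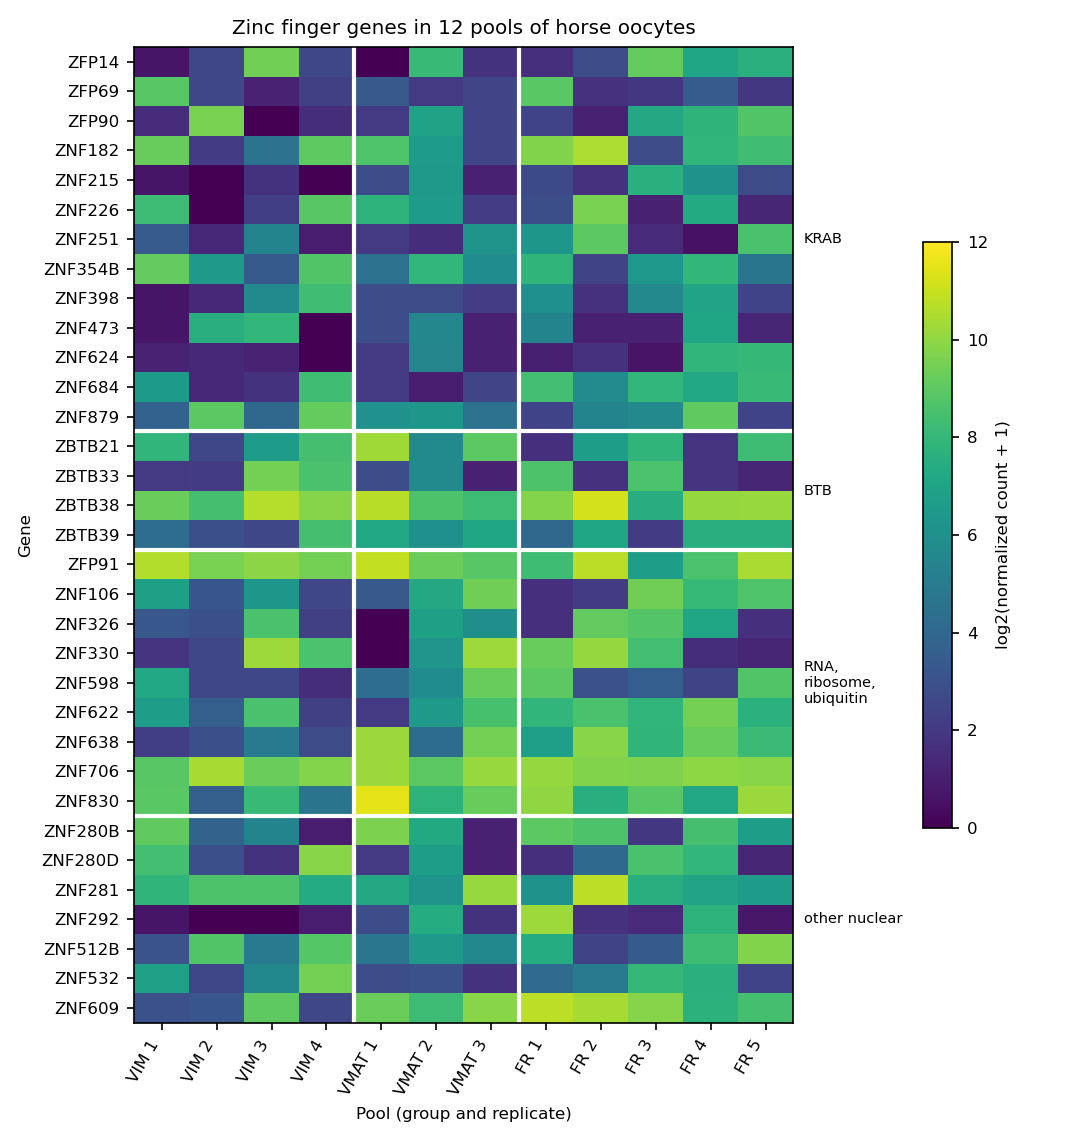
Level of each of the 33 zinc finger genes (vertical axis, grouped by role with white lines) in each of the 12 pools (horizontal axis, grouped as VIM, VMAT and FR), as log2(normalized count + 1) in colour. Only ZNF706, ZBTB38, ZFP91 and ZNF281 were above 30 reads in every pool, and most of the other genes alternate between bright and dark within a group.

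Of the gene and pool values of the KRAB genes, 19 of 52 were above 30 reads in VIM (36.5%), 14 of 39 in VMAT (35.9%) and 37 of 65 in FR (56.9%). Over all 12 pools the share was 71.8% for the named genes and 30.3% for all genes, and differences between the roles were not tested. By group, the mean share of the named genes was 67.9% in VIM, 69.6% in VMAT and 76.3% in FR, which also stands beside the roles below. Of the 14 VMAT values, 10 came from VMAT replicate 2, and the other 2 VMAT pools had 2 KRAB genes each. A KRAB gene was above 30 reads in a median of 5 pools (2 to 9). Since KRAB genes form a multigene family with similar copies, and how reads shared between copies were assigned can change a member's level, these values carry that uncertainty.

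ZNF684 (ENSECAG00000022010) was the only KRAB gene above 30 reads in every fresh pool. Its normalized counts were 335, 54.9, 243, 145 and 281 in FR, 3.11, 0.877 and 4.72 in VMAT, and 90.9, 1.63, 2.41 and 314 in VIM. All VMAT pools lay below all FR pools, resting on 1, 7 and 4 reads where FR had 311, 48, 434, 288 and 393, whereas the VIM pools were divided. ZFP69, which in the RefSeq annotation of another horse assembly (TB-T2T) lies on the other side of EXO5 from ZNF684, showed another pattern. It was at 465 in VIM replicate 1 and 485 in FR replicate 1 and between 1.21 and 10.1 in the other 10 pools, VMAT included.

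ZNF215 (ENSECAG00000011501) and ZNF624 (ENSECAG00000003158), singled out after their values were seen, had no VIM pool above 30 reads. ZNF215 was at 0.614, 0, 2.41 and 0 in VIM, 6.22, 85.2 and 1.18 in VMAT, and 5.39, 2.29, 193, 70.1 and 5.73 in FR. ZNF624 was at 1.23, 1.63, 1.21 and 0 in VIM, 3.11, 42.5 and 1.18 in VMAT, and 1.08, 2.29, 0.560, 238 and 257 in FR. Both genes were high in 2 FR pools and in the deepest VMAT pool, and the remaining FR pools overlapped with VIM or lay just above it.

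Of the other KRAB genes, ZFP14 ranged from 0.614 to 705 in VIM, from 0 to 268 in VMAT and from 2.16 to 564 in FR. ZFP90 ranged from 0 to 758, from 3.11 to 118 and from 1.14 to 433 in the same order. ZNF182 ranged from 3.26 to 591, from 4.72 to 411 and from 5.6 to 1453. All 3 therefore spanned the floor and the high class in every group. ZNF226 ranged from 0 to 473 in VIM, from 3.54 to 215 in VMAT and from 1.12 to 758 in FR. ZNF251 ranged from 0.978 to 41.0, from 2.0 to 74.3 and from 0.505 to 498, and ZNF398 from 0.614 to 320, from 3.54 to 6.22 and from 2.29 to 126. For ZNF398 the normalized level stayed low in all VMAT pools, although VMAT replicate 2 held 47 reads at its greater depth. ZNF473, a KRAB protein that takes part in processing the 3′ end of histone messengers, ranged from 0 to 249 in VIM, from 1.18 to 45.7 in VMAT and from 1.12 to 137 in FR. ZNF354B ranged from 9.64 to 555, from 21.8 to 243 and from 4.58 to 245, and ZNF879 from 12.9 to 576, from 21.2 to 80.3 and from 4.30 to 532.

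The BTB genes were above 30 reads in 10 of 16 VIM values (62.5%), 10 of 12 VMAT values (83.3%) and 13 of 20 FR values (65.0%). ZBTB38 (ENSECAG00000010836), which binds methylated DNA, was high in every pool, at 606, 352, 1644 and 897 in VIM, 1649, 401 and 301 in VMAT, and 878, 2298, 180, 1103 and 1121 in FR. Its group means were 875 ± 559 (SD, n = 4), 783 ± 751 (SD, n = 3) and 1116 ± 763 (SD, n = 5). ZBTB33 (Kaiso), another reader of methylated DNA, was instead high in some pools of each group, at 3.07, 3.26, 725 and 372 in VIM, 6.22, 52.0 and 1.18 in VMAT, and 402, 2.29, 390, 2.52 and 1.43 in FR. Thus of the 2 methyl-DNA readers among the members, one was above 30 reads in all pools and the other in 5.

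ZBTB21 (ENSECAG00000013046), a BTB protein known as a transcriptional repressor, was at 234, 4.89, 94.0 and 350 in VIM, 1270, 50.6 and 503 in VMAT, and 2.16, 106, 230, 2.52 and 309 in FR. The VMAT pools were all above 30 reads, with 2 of them above the range of FR and replicate 2 within it. ZBTB39 was at 18.4, 6.52, 4.82 and 346 in VIM, 143, 63.6 and 134 in VMAT, and 15.1, 130, 3.36, 186 and 190 in FR. It was also above 30 reads in all VMAT pools, and VMAT lay within the range of both other groups.

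The genes of RNA, ribosome and ubiquitin functions were above 30 reads in 18 of 36 VIM values (50.0%), 22 of 27 VMAT values (81.5%) and 36 of 45 FR values (80%). By pool these were 6, 2, 7 and 3 genes in VIM, 4, 9 and 9 in VMAT, and 7 to 8 in FR. ZNF638 (ENSECAG00000007715), also called NP220, is a large protein of nuclear speckles that binds DNA and RNA and takes part in silencing DNA from outside the chromosomes together with the HUSH complex. Its normalized counts were 3.68, 6.52, 30.1 and 5.87 in VIM, 1164, 18 and 720 in VMAT, and 107, 930, 233, 598 and 290 in FR. The VIM pools rested on 6, 4, 25 and 6 reads and all lay below all FR pools, which rested on 99 to 1186 reads. In VMAT 2 pools were within or above the range of FR, and replicate 2, with 144 reads at its greater depth, lay within the range of VIM.

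ZNF622 (ENSECAG00000020350), which acts in the maturation of the large ribosomal subunit, was at 100, 11.4, 375 and 3.91 in VIM, 3.11, 86.4 and 368 in VMAT, and 234, 375, 238, 719 and 201 in FR. All FR pools were high, and in each vitrified group 1 pool reached their range. ZNF598, the ubiquitin ligase that marks collided ribosomes, was at 145, 4.89, 4.82 and 1.96 in VIM, 18.7, 55.4 and 600 in VMAT, and 498, 6.86, 11.2, 4.54 and 424 in FR, so that fresh pools too fell into low and high ones.

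ZNF706 (ENSECAG00000013562), a small zinc finger protein, was the steadiest member. It was at 474, 1400, 607 and 875 in VIM, 1161, 506 and 1128 in VMAT, and 1104, 853, 822, 983 and 930 in FR. The means were 839 ± 410 (SD, n = 4), 932 ± 369 (SD, n = 3) and 938 ± 112 (SD, n = 5), and the vitrified groups spread to both sides of FR. ZFP91, an atypical ubiquitin ligase, ranged from 727 to 1548 in VIM, from 478 to 1901 in VMAT and from 103 to 1749 in FR.

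ZNF830, a factor of pre-mRNA splicing, was at 487, 11.4, 277 and 23.5 in VIM, 2882, 218 and 599 in VMAT, and 1022, 188, 469, 142 and 1165 in FR. It was above 30 reads in all VMAT and FR pools and in 2 VIM pools. ZNF326, a subunit of the DBIRD complex that couples splicing to transcription, ranged from 3.91 to 370 in VIM, from 0 to 112 in VMAT and from 2.16 to 550 in FR. ZNF106, an RNA-binding protein, ranged from 4.89 to 112, from 9.34 to 683 and from 2.16 to 667, and the nucleolar protein ZNF330 from 2.46 to 1195, from 0 to 1227 and from 1.43 to 1107. The spread of these 3 within each group covered the whole difference between low and high pools.

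The other nuclear genes were above 30 reads in 14 of 28 VIM values (50.0%), 13 of 21 VMAT values (61.9%) and 23 of 35 FR values (65.7%). ZNF609 (ENSECAG00000024130), which associates with the cohesin loader NIPBL and the Integrator complex, was at 6.75, 8.15, 527 and 4.89 in VIM, 610, 294 and 947 in VMAT, and 1774, 1394, 896, 206 and 349 in FR. VMAT and FR pools were all high, and of the VIM pools 3 were low, on 11, 5 and 5 reads, whereas VIM replicate 3 lay within FR. ZNF281, a regulator of pluripotency genes, was read in all pools, from 164 to 404 in VIM, from 74.1 to 1139 in VMAT and from 67.9 to 1764 in FR.

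ZNF292 (ENSECAG00000018906), a large transcription factor, was at 0.614, 0, 0 and 0.978 in VIM, 6.22, 170 and 2.36 in VMAT, and 1218, 2.29, 1.68, 218 and 0.716 in FR. The VIM values stood for 1, 0, 0 and 1 reads and 2 of the VMAT values for 2 reads each, so this order between VIM and VMAT was near the floor. ZNF532, a member of the Z4 complex of chromatin-bound zinc finger proteins, was at 114, 4.89, 48.2 and 718 in VIM, 6.22, 6.76 and 2.36 in VMAT, and 17.3, 30.9, 254, 195 and 4.30 in FR. All VMAT pools were low in normalized count, although replicate 2 held 54 reads, and both other groups reached down to that level. ZNF280B ranged from 0.978 to 538 in VIM, from 1.18 to 781 in VMAT and from 2.80 to 501 in FR. ZNF280D ranged from 2.41 to 931, from 1.18 to 102 and from 1.43 to 374, and ZNF512B from 7.37 to 449, from 24.9 to 88.3 and from 4.58 to 855.

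**Figure D4:**
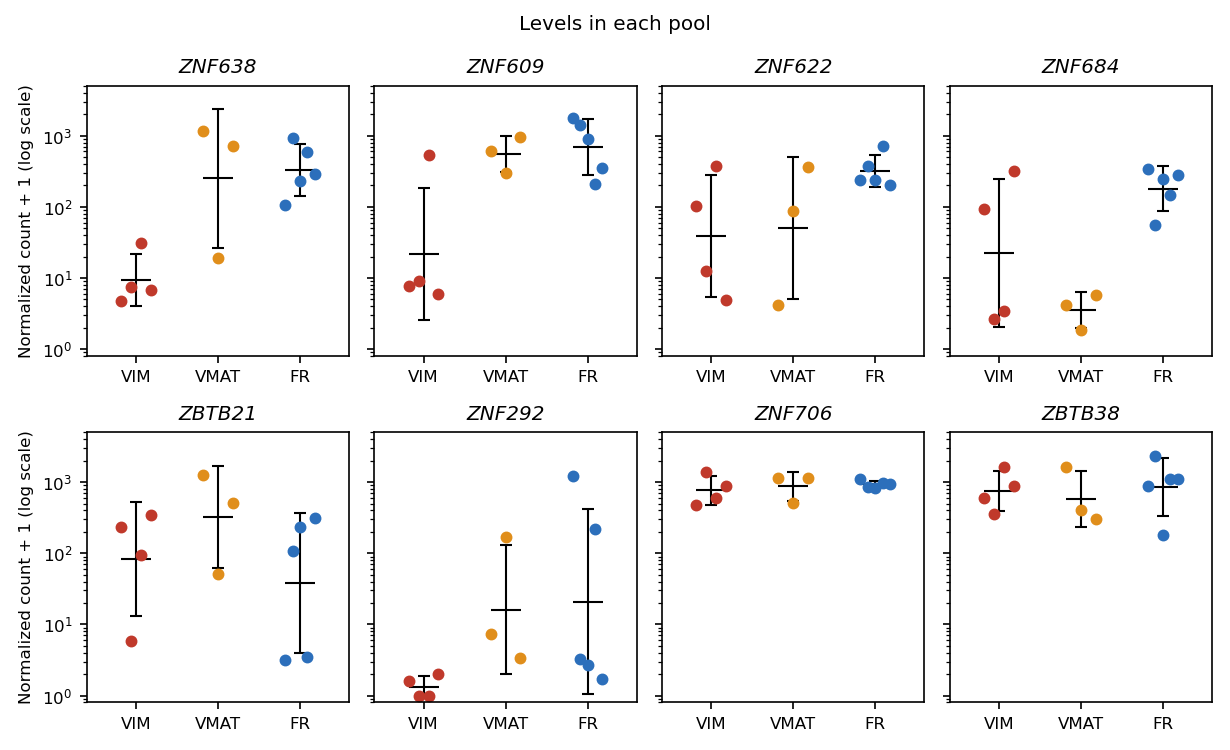
Normalized count + 1 (vertical axis, log scale) of 8 zinc finger genes in each pool (points) of the VIM, VMAT and FR groups (horizontal axis), where the bar is the mean and the whiskers 1 SD on the log2 scale. All VIM pools lie below all FR pools for ZNF638 and all VMAT pools below all FR pools for ZNF684, while ZNF706 and ZBTB38, chosen after their values were seen, are high in every pool.

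The comparison of VIM with FR asked how vitrification before IVM is reflected in the matured oocyte. The members with the smallest p were ZNF609, ZNF638 and ZNF622, each with a lower mean in VIM. For ZNF638 the mean was 11.5 ± 12.4 in the VIM pools (SD, n = 4) and 432 ± 332 in the FR pools (SD, n = 5), a difference of -5.16 (SE 1.64) on the log2(normalized count + 1) scale with a limma adjusted p of 0.902. For ZNF609 the means were 137 ± 260 and 924 ± 669, with a difference of -5.00 (SE 1.51) and a limma adjusted p of 0.902. The size of this difference depended on the tool, being -2.85 in edgeR and -2.79 in DESeq2 (adjusted p = 0.281 and 0.13). For ZNF622 they were 123 ± 174 and 353 ± 215, with a difference of -3.01 (SE 1.51) and a limma adjusted p of 0.902, and it was -1.64 in edgeR and -1.54 in DESeq2. For ZNF684 the means were 102 ± 147 and 212 ± 112, and the difference was -3.0 (SE 1.79, limma adjusted p = 0.902), with -1.96 without VIM replicate 2 and -1.08 in both edgeR and DESeq2.

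None of the 33 members passed the limma test (Benjamini-Hochberg adjusted p up to 0.05 with a log2 fold change of 1 or more in either direction) in VIM vs. FR, and neither did any of the 7351 genes tested (0%). At an unadjusted p under 0.05 there were 2 members, ZNF609 and ZNF638, beside 278 genes (3.78%). edgeR's quasi-likelihood test on the recovered reads called 0 members and 0 genes. DESeq2 on the same reads called 4 members, all lower in VIM, beside 508 genes (6.91% of those tested, 4.53% lower and 2.38% higher). The 4 were ZNF638 (log2 fold change -5.25, adjusted p = 0.000413), ZNF292 (adjusted p = 0.000913), ZNF624 (adjusted p = 0.0143) and ZNF215 (adjusted p = 0.0235), the last 3 with VIM values near the floor, for which no fold is given. The call of a difference thus depended on the tool for each of these genes. ZNF292, ZNF624 and ZNF215 were named only through the VMAT list, so nothing is read from the count of 4 or from its direction. Of the members, 21 had a mean difference below 0 (53.1% of all genes), and their median was -1.12 beside -0.12 over all genes, a direction that the naming favours.

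ZNF638 was the only member whose VIM pools all lay below the FR pools, a property of 0.639% of the genes tested, and no member had all VIM pools above FR (0.952%). The naming favours members lower in VIM, so these counts are not read against the shares. Without VIM replicate 3 there were 4 members with all VIM pools below FR, ZNF638, ZNF609, ZNF622 and ZNF215. Without VIM replicate 4 or FR replicate 5 there were 2, ZNF638 and ZNF292, and without FR replicate 2 also 2, ZNF638 and ZNF215. Without VIM replicate 4, the order of ZNF292 rested on 1 read each in VIM replicate 1 and FR replicate 5. No share over all genes is given for sets with a pool left out, so nothing is read from these counts. Counting reads instead, 4 members (12.1%) had no VIM pool and at least 2 FR pools above 30 reads, namely ZNF215, ZNF292, ZNF624 and ZNF638, beside 7.89% of the genes tested and 4.24% of the named genes. The reverse held for 0 members and 2.49% of the genes. ZNF215, ZNF292 and ZNF624 were named only through the VMAT list, so nothing is read from the count of 4.

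The comparison of VMAT with FR asked the same of vitrification after IVM, and shared its FR pools with the previous comparison. ZNF684, ZNF622 and ZBTB21 had the smallest p. For ZNF684 the mean was 2.90 ± 1.93 in the VMAT pools (SD, n = 3) and 212 ± 112 in the FR pools (SD, n = 5), a difference of -5.67 (SE 2.07) on the log2(normalized count + 1) scale with a limma adjusted p of 0.95. With VMAT at 1, 7 and 4 reads, near the floor, its size depended on the pseudocount (-3.90 at a pseudocount of 10). For ZNF622 the means were 152 ± 191 and 353 ± 215, with a difference of -2.62 (SE 1.61) and a limma adjusted p of 0.95. This value rested on single pools, at -0.81 without VMAT replicate 1 and -4.05 without VMAT replicate 3, and was -1.22 in edgeR and -1.18 in DESeq2. For ZBTB21 they were 608 ± 616 and 130 ± 137, with a difference of 3.06 (SE 1.96) and a limma adjusted p of 0.95, which was 1.74 in edgeR and 1.69 after quantile normalization. ZNF638 differed by -0.40 (SE 1.41) and ZNF609 by -0.32 (SE 1.07), both with a limma adjusted p of 0.995. The sign of ZNF638 turned to 1.46 and that of ZNF609 to 0.13 without VMAT replicate 2, and ZNF609 was at 0.02 without FR replicate 1, so neither gene had a direction in VMAT vs. FR.

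No member and none of the 8305 genes tested passed the limma test in VMAT vs. FR (0%). At an unadjusted p under 0.05 there were 1 member, ZNF684, and 301 genes (3.62%). edgeR called 0 members and 1 gene (0.012%). DESeq2 called 1 member, ZNF684 (adjusted p = 0.00109), beside 357 genes (4.3% of those tested, 2.12% lower and 2.18% higher). A mean difference below 0 was found for 23 members (49.7% of all genes), and the medians were -0.61 over the members and 0.01 over all genes, again a direction the naming favours.

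ZNF684 was the only member whose VMAT pools all lay below the FR pools (1.23% of genes tested), and it was so without any 1 of the pools. Without VMAT replicate 3, ZNF622 joined it, and without FR replicate 5, ZNF532. No member had all VMAT pools above FR (1.96%), but without VMAT replicate 2 there were 2, ZBTB21 and ZNF706. The naming favours members lower in VMAT, so the count below FR is not read against its share. For sets with a pool left out no share over all genes is given, so nothing is read from those counts. ZNF684 was also the only member (3.03%) with no VMAT pool and at least 2 FR pools above 30 reads, beside 4.3% of the genes tested and 1.56% of the named genes, and 0 members showed the reverse (2.71%).

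The comparison of VIM with VMAT addressed the stage at which oocytes are vitrified. ZNF609, ZNF638 and ZNF292 had the smallest p, each lower in VIM. ZNF638 differed by -4.76 (SE 2.53), between means of 11.5 ± 12.4 in the VIM pools (SD, n = 4) and 634 ± 578 in the VMAT pools (SD, n = 3), with a limma adjusted p of 0.967. ZNF609 differed by -4.68 (SE 2.11), between 137 ± 260 and 617 ± 326, with a limma adjusted p of 0.967, and by -2.17 in both edgeR and DESeq2. ZNF292 differed by -3.59 (SE 1.93, limma adjusted p = 0.967), a value that depends on the pseudocount because VIM was at 0 or 1 reads and is no bound on the fold. It was -1.67 at a pseudocount of 10 and -1.88 without VMAT replicate 2. ZNF684 went the other way, by 2.68 (SE 2.85, limma adjusted p = 0.977), with 1.41 without VIM replicate 4, and 5.30 in edgeR and 5.19 in DESeq2, again with VMAT near the floor.

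Neither the members nor the 7627 genes tested passed the limma test in VIM vs. VMAT (0%). At an unadjusted p under 0.05 there were 1 member, ZNF609, and 227 genes (2.98%). edgeR called 0 members and 1 gene (0.0131%). DESeq2 called 2 members beside 300 genes (3.93%), with 2.24% lower and 1.69% higher in VIM. These were ZNF638 (log2 fold change -5.80, adjusted p = 0.0069) and ZNF532 (adjusted p = 0.0342), the latter named after its values were seen, with 221 ± 334 in the VIM pools (SD, n = 4) and 5.11 ± 2.40 in the VMAT pools (SD, n = 3). A mean difference below 0 was found for 17 members (52.2% of all genes), with medians of -0.02 over the members and -0.08 over all genes.

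In this comparison the VIM pools lay all below the VMAT pools only for ZNF292 (2.78% of genes tested), at the read numbers near the floor given above, and 0 members had all VIM pools above VMAT (1.72%). ZNF292 was named only through the VMAT list, which held genes above 0 in every VMAT pool, so nothing is read from its order. The count rested on single pools, being 5 without VMAT replicate 2 (ZNF292, ZNF638, ZNF609, ZNF830 and ZBTB21), 4 without VIM replicate 3, 3 without VMAT replicate 3 and 2 without any 1 of the remaining pools. All VIM pools lay above VMAT for ZNF532 without VIM replicate 2, for ZFP91 without VMAT replicate 1 and for ZNF281 without VMAT replicate 3. No share over all genes is given for sets with a pool left out, so nothing is read from these counts. By reads, ZNF638 had no VIM pool and at least 2 VMAT pools above 30 reads (4% of genes tested, 1.36% of named genes), and ZNF684 the reverse (2.2% and 0.701%).

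The precision of these comparisons was low for the members. The median SE of a member's difference was 2.01 for VIM against FR, 2.13 for VMAT against FR and 2.45 between the vitrified groups, compared with 1.73, 1.84 and 2.01 over all genes tested, all on the log2(normalized count + 1) scale. The members lay at a higher level than the genes tested, and low genes vary less on this scale, so the SE are not compared like for like. An adjusted p above the threshold does not show that the levels were alike.

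Partner genes known to work with the members were examined in the same fits. Of 32 partners, 13 had a name in the lists: the heterochromatin proteins CBX3 and CBX5 and the HUSH subunits MPHOSPH8 and TASOR, which act with KRAB proteins or ZNF638, the corepressor NCOR1, the ribosome quality control genes RACK1, GIGYF2, EIF4E2, RPS10 and RPS20, the ribosome maturation factors SBDS and EIF6, and NIPBL. TRIM28 had no name here. None of the 13 passed the limma test in any of the 3 comparisons, nor edgeR. At an unadjusted p under 0.05 there was 1 in VIM vs. FR, RPS10, 1 in VMAT vs. FR, CBX5, and 0 in VIM vs. VMAT. Over all genes tested the shares were 3.78%, 3.62% and 2.98% in the same order. DESeq2 called RPS10 in VIM vs. FR (adjusted p = 0.00215) and no other partner. RPS10, a ribosomal protein to which ZNF598 attaches ubiquitin, was at 0.614, 0, 3.62 and 3.91 in VIM, 40.5, 44.3 and 2.36 in VMAT, and 4.31, 324, 246, 23.7 and 324 in FR. RPS10 and CBX5 were singled out after their values were seen. RPS10 had no read in VIM replicate 2 and CBX5 had none in VMAT replicate 1. The list held for that comparison thus did not name them, so nothing is read from their low values there.

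The members also differed by their place in the genome. In the RefSeq table of the TB-T2T assembly, 28 of the 33 were found by name. A protein-coding gene whose symbol began ZNF, ZFP, ZBTB or ZSCAN lay directly beside 5 of them. All 5 were KRAB genes (5 of 9 found, 55.6%), namely ZFP69, ZNF182, ZNF215, ZNF398 and ZNF624. Of the 19 members of other roles, 0 had a neighbour with such a symbol. Neighbours with only a LOC symbol, as beside ZNF280B, ZBTB33, ZNF182, ZNF473 and ZNF684, were not counted, and what they encode was not examined. Over the 21772 protein-coding genes of the table the share was 3.09%.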

How the data were processed

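RNA of pooled oocytes was made into libraries with the QIAseq UPX 3′ kit, which tags each molecule with a unique molecular identifier (UMI). According to the study's methods, the authors trimmed reads with Trim Galore, aligned them to EquCab3.0 with STAR, handled UMIs with UMI-tools and counted genes with RSEM. The signal that the authors deposited is a DESeq2-normalized count per gene and sample. All columns were used.

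Whole reads were recovered from the common step of each sample (100% of values whole within 1e-06) and served for depth, edgeR 4.0.16 and DESeq2 1.42.0. The lowest chi-square between pools of a group was 297 per degree of freedom, so no pool was a duplicate. Each comparison used its own samples and genes with values above 0 in 4 or more samples (VIM vs. FR) or 3 or more (the other comparisons), the size of the smaller group. limma 3.58.1 in R 4.3.3 (lmFit, eBayes with trend) was run on log2(normalized count + 1), a scale that understates changes of low genes. DE required an adjusted p (Benjamini-Hochberg over all genes tested) up to 0.05 with a log2 fold change of 1 or more in size. The scripts were tested on simulated data.

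Names came from the study's supplementary lists. Their fold changes served only to describe how the lists were ordered, and their p-values were not used. Members, gene lists and tests were chosen with earlier results of these data known. Fold changes were given for ZNF638, ZNF609 and ZNF684 and for the 3 members with the smallest limma p per comparison, and levels for every member. Whether replicate numbers pair the samples is not known, and they were used only in the replicate block. Other zinc finger genes could not be listed, because 0 genes of the RefSeq table carried an Ensembl identifier, and sequences and coordinates in the authors' build were not used here. Alternatives covered pseudocount, filter, normalization, tool, replicate block and leaving out each replicate.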

Additional observations from a re-analysis of the deposited data

Results flagged for a closer look

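Of 70 groups of 4 or 5 pools examined, 17 held a pool that lay far from the others of its group by Dixon's criterion at the 95% level. Chance marks about 1 in 20 groups of normally distributed values (3.5 of 70), but these counts were mostly either near 0 or high, so that number is no reference for them. In each gene named here the distant pool was the highest of its group.

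In VIM, replicate 1 was distant for ZFP69 (465, others 1.21 to 4.89), ZNF280B (538, others 0.978 to 42.2) and ZNF598 (145, others 1.96 to 4.89), all as normalized counts. Replicate 2 was distant for ZFP90 (758, others 0 to 1.96). Replicate 3 was distant for ZFP14 (705, others 0.614 to 4.89), ZNF326 (370, others 3.91 to 8.59), ZNF609 (527, others 4.89 to 8.15) and ZNF638 (30.1, others 3.68 to 6.52). Replicate 4 was distant for ZBTB39 (346, others 4.82 to 18.4), ZNF398 (320, others 0.614 to 53.0) and ZNF532 (718, others 4.89 to 114).

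In FR, replicate 1 was distant for ZFP69 (485, others 2.29 to 10.1) and ZNF292 (1218, others 0.716 to 218), replicate 2 for ZNF226 (758, others 1.12 to 162) and ZNF281 (1764, others 67.9 to 183), and replicate 4 for ZNF879 (532, others 4.30 to 49.8). The number of members above 30 reads was also distant in VIM replicate 2, with 9 where the other VIM pools had 17 to 18. Groups of 3 (VMAT) were not examined.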

How the results depend on the processing

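limma called 0 members in all 3 comparisons under every limma alternative tried, the replicate block included (0 members and 0 genes in each comparison). Between samples of the same replicate number, correlations of deviations ran from -0.03 to 0.01 in 10 pairs. With so wide a spread within groups, this cannot tell whether such samples shared a session. eBayes without trend called 3 genes in VIM vs. FR, edgeR 1 gene each in VMAT vs. FR and VIM vs. VMAT, and DESeq2 508 genes with 4 members in VIM vs. FR, 357 with 1 in VMAT vs. FR and 300 with 2 in VIM vs. VMAT. Of 245 alternatives for fold changes of named members, 237 kept direction and side of the threshold and 3 passed it (DESeq2, ZNF638 in VIM vs. FR and VIM vs. VMAT, ZNF684 in VMAT vs. FR). Several of the 237 moved by over 1.5 times in size, as given beside them in the report. In VIM vs. VMAT the replicate block also gave 1.41 for ZNF684, and ZNF292 was at -7.37 in edgeR and -6.81 in DESeq2. The other 5 turned sign in VMAT vs. FR, ZNF638 to 0.11 (edgeR), 0.58 (DESeq2) and 1.46 (without VMAT replicate 2), and ZNF609 to 0.13 (without VMAT replicate 2) and 0.02 (without FR replicate 1). With each pool left out, ZNF638 ranged from -1.51 to 1.46 and ZNF609 from -0.76 to 0.13 in that comparison. A filter of at least 10 normalized counts dropped ZNF684 and ZNF292 from VIM vs. VMAT. Members whose groups did not overlap numbered 1 to 4 (VIM below FR), 1 to 2 (VMAT below FR), 0 to 2 (VMAT above FR), 2 to 5 (VIM below VMAT) and 0 to 1 (VIM above VMAT) when each pool was left out, and 2 (VIM below VMAT) when reads were scaled by library totals. The leave-out counts, the count at equal totals and the normalized threshold of 30 were chosen after seeing the data. No share over all genes is given for the leave-out counts of non-overlapping members, so nothing is read from them. The median number of members above 30 reads was 18, and 21.5 at 10 reads, 16.5 at 100, 19 at a normalized count of 30, 17 at equal totals and 18 without VMAT replicate 1 or 2. The cause of these changes was not tested. Depth limits values under 3 reads, which are not distinguishable from 0.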
